A study of Mus musculus with 6 samples.

Results

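Granzymes and perforin are the proteins that cytotoxic lymphocytes release from granules to kill a bound cell. The 9 genes described here, Gzma, Gzmb, Gzmc, Gzmd, Gzme, Gzmf, Gzmk, Gzmm and Prf1, were taken by symbol from the 32285 gene rows of the deposited matrices, and each symbol matched 1 row. Single-cell RNA-Seq was done on CD45+ cells that were bead-isolated from B16-F10 tumors, a transplanted melanoma line, in female C57BL/6 mice aged 6 to 10 weeks. The αPD-1 group holds 3 samples and the αPD-1 + corin group holds 3 samples. Every mouse received αPD-1 antibody at 150 μg, dosed 3 times weekly from day 7 after grafting. The αPD-1 + corin mice were also given corin, an inhibitor of the CoREST complex, at 200 μg daily from day 6, and the protocol names a vehicle as its control. No sample lacked the antibody, so each comparison concerns the addition of corin to αPD-1. Each arm held 10 mice. Which of them gave a sample is not in the labels, nor whether mice were pooled, so p-values measure the spread between these samples only.

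Perforin inserts into the membrane of the target cell and forms pores through which granzymes, a family of serine proteases, reach the cytosol. Granzyme B cleaves after aspartate and starts apoptosis, while granzymes A and K cleave after basic residues. Granzymes C, D, E and F are mouse proteases related to granzyme B and are known from strongly stimulated killer T cells, and granzyme M is best known from NK cells. In tumors these genes are read as signs of killing capacity in CD8+ T cells and NK cells, and mRNA does not report protein or release.

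The genes lie at 4 places in the mouse genome (GRCm39, GENCODE vM39). Gzmb (chr14:56496295-56499717), Gzmc (chr14:56468857-56479211), Gzmf (chr14:56442720-56448874), Gzmd (chr14:56367013-56370065) and Gzme (chr14:56355083-56358082) stand in 1 cluster on the minus strand of chromosome 14. Gzma (chr13:113230355-113237524) and Gzmk (chr13:113308142-113362442) are neighbors on the minus strand of chromosome 13. Prf1 (chr10:61133546-61140461) and Gzmm (chr10:79524854-79531095) are far apart on the plus strand of chromosome 10. All 9 are protein coding. Gzmc, Gzmf, Gzmk and Gzmm overlap an annotated gene on the opposite strand, and since the strand setting of the counting is not given in the sources used here, the 2 strands cannot be told apart in these 4 genes.

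Because Gzmc to Gzmf are close copies, the first 90 bases of their coding sequences are shown, as they bear on whether reads can be told apart. Capitals mark bases that differ from Gzmd at the same position.
Gzmd: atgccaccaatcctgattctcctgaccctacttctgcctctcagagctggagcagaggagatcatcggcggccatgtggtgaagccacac
Gzme: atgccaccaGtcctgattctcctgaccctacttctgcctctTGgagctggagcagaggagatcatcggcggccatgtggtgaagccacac
Gzmf: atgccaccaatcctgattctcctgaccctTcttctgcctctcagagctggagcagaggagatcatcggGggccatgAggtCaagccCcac
Gzmc: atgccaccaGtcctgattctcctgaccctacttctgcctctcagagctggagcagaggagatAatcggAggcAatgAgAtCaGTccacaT
Gzmb: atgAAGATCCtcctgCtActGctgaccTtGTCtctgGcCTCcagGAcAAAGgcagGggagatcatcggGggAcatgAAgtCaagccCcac
Gzme differs from Gzmd at 3 of these 90 bases, Gzmf at 5, Gzmc at 10 and Gzmb at 31. Over whole coding sequences Gzmd and Gzme were 93.3% identical, Gzmd and Gzmf 83.9%, Gzme and Gzmf 85.8%, Gzmc and Gzmd 72.9%, and Gzmb and Gzmc 76.9%. Windows of 90 bases, the length of the cDNA read, were still unique in nearly all cases: 97.8% of those in Gzmd, 98.3% in Gzme, 98.7% in Gzmf and 100% in the other 6 genes occurred in no other annotated transcript. Values of Gzmd and Gzme are the least certain of the 9, since a read with few differences can be assigned to the wrong copy.

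Most UMIs of Gzmc to Gzmf in CD8 T cells came from the same few cells. The 250 bases before the start of these genes and of Gzmb are shown from RefSeq on GRCm38.p6, not the build of the counts. They are written 5′ to 3′ on the minus strand. Capitals mark matches, on either strand, to TGTGGT (Runx), AGGAAG (ETS), TGANTCA (AP-1) or TGACGTCA (CRE).
Gzmb (chr14:56262335-56262584): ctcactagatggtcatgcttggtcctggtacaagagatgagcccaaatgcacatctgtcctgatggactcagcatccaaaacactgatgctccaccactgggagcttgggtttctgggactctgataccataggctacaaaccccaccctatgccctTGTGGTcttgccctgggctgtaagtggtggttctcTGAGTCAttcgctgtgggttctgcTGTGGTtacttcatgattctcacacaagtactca
Gzmc (chr14:56234658-56234907): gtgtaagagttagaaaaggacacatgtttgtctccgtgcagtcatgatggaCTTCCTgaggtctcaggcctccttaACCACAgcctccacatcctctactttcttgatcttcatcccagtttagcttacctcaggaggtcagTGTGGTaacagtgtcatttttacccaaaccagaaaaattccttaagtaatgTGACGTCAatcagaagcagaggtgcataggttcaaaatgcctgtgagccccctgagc
Gzmd (chr14:56132594-56132843): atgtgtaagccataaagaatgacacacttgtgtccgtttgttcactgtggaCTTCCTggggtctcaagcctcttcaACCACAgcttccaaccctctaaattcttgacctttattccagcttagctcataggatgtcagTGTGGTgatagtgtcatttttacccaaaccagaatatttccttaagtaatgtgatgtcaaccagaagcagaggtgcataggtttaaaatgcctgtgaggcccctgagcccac
Gzme (chr14:56120626-56120875): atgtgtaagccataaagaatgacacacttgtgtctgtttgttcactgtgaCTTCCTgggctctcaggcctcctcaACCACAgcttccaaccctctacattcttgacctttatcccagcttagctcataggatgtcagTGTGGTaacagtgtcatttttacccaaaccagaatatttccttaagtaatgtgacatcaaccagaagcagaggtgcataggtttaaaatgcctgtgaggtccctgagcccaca
Gzmf (chr14:56211408-56211657): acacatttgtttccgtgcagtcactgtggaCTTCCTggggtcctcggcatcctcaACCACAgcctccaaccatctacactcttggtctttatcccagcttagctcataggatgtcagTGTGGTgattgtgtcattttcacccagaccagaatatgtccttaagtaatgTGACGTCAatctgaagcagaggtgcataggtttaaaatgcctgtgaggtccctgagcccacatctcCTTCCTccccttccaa
The upstream sequences of Gzmd and Gzme were 95.2% identical, those of Gzmc and Gzmd 82.4%, of Gzmc and Gzmf 77.2% and of Gzmd and Gzmf 80.8%, whereas that of Gzmb was between 49.2% and 54.0% identical to the 4. TGTGGT was in the window of 8 of the 9 genes, all but Gzmk, against 14.0% of 32851 annotated promoters. Shares of annotated promoters are over windows of 300 bases, which are not the same as the 250 bases shown. AGGAAG was in 6 of the 9, including Gzmc to Gzmf and not Gzmb, against 29.5% of promoters. TGACGTCA was in Gzmc and Gzmf, against 1.55% of promoters, and TGANTCA was in Gzmb alone of the 9, against 6.75%. These are matches of letters, and no binding was measured.

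Lineages were gated on marker UMIs in 28866 cells that passed the filters, of 52899 barcodes in libraries of 52281422 to 84276739 UMIs. Pairs of libraries shared 1 to 15 of the kept barcodes. T cells had at least 2 UMIs of CD3 or T cell receptor constant genes, and were split by Cd8a or Cd8b1, by Cd4 and by Foxp3. CD8 T cells numbered 304, 346 and 252 under αPD-1 alone (replicates 1 to 3) and 103, 206 and 886 under αPD-1 + corin. CD4 T cells without Foxp3 numbered 91, 74 and 60 against 21, 43 and 30, Foxp3+ T cells 36, 29 and 31 against 27, 73 and 15, and NK cells 64, 66 and 39 against 39, 60 and 106. The sets are small outside CD8 T cells, which limits what could be detected there. The gates were checked on genes they did not use: Tyrobp, an adaptor of NK receptors, had a UMI in 87.2% to 93.3% of NK cells, and Ikzf2, common in regulatory T cells, in 74.1% to 91.8% of Foxp3+ T cells.

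T cell barcodes with more than 1 B cell UMI or more than 2 macrophage UMIs were kept out of every gate, and these were not few: of 6996 cells with T cell UMIs, 3845 were in a T gate and 3151 were not. They held 80.5% (macrophage UMIs) and 14.0% (other limits) of the Gzmb UMIs that fell outside the gates. The αPD-1 + corin replicate 1 sample stood apart among CD8 T cells, with 103 cells and 2794 CPM (UMIs of a gene scaled to 1e+06 UMIs of the sum) of the myeloid marker list. The list was lower in each αPD-1 sample (464, 702 and 302 CPM) than in each αPD-1 + corin sample (2794, 966 and 1160 CPM). Results that rest on that sample are given with and without it.

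Each gene was first measured as CPM in the summed cells of each gate, one sum per sample. UMIs count molecules from one end of the transcript, so these levels are not divided by transcript length. Prf1, the pore protein, was at 328, 461 and 314 CPM in CD8 T cells under αPD-1 alone and at 106, 683 and 650 CPM under αPD-1 + corin. In NK cells Prf1 was at 461, 471 and 359 CPM and at 266, 202 and 476 CPM. The 2 lineages overlapped, and both were above every Foxp3+ T cell sum (16.1 to 104 CPM) and every CD4 T cell sum (0 to 47.1 CPM). B cells, myeloid cells and melanoma cells, which should lack the gene, were at 0 to 33.5, 0.211 to 1.52 and 0 CPM.

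Gzmb, the main apoptosis-inducing granzyme, was at 886, 885 and 530 CPM in CD8 T cells under αPD-1 alone and at 774, 969 and 1727 CPM under αPD-1 + corin. In NK cells it was at 660, 772 and 834 CPM and at 447, 261 and 682 CPM, and in Foxp3+ T cells at 650, 563 and 153 CPM and at 501, 420 and 457 CPM. Foxp3+ T cells thus held Gzmb at levels inside the range of NK cells in 5 of 6 samples, with little Prf1. B cells were at 0 to 11.2 CPM, myeloid cells at 0.889 to 3.84 CPM and melanoma cells at 0 to 0.726 CPM.

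Gzma, a tryptase that NK cells carry, was at 3879, 2455 and 3594 CPM in NK cells under αPD-1 alone and at 1018, 1137 and 3089 CPM under αPD-1 + corin. CD8 T cells were between 26.3 and 136 CPM, so no sum of theirs came near an NK sum. Gzmk, its neighbor on chromosome 13, had the opposite order, with 78.2 to 156 CPM in CD8 T cells and 0 to 16.8 CPM in NK cells.

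Gzmc was at 245, 281 and 290 CPM in CD8 T cells under αPD-1 alone and at 5.57, 558 and 267 CPM under αPD-1 + corin. In NK cells it ranged from 133 to 1927 CPM. Gzmd, Gzme and Gzmf had most of their gated UMIs in CD8 T cells, at 2.78 to 90.2, 0 to 73.5 and 0 to 257 CPM. In NK cells Gzmd was at 0 CPM in 4 of 6 samples, at 4.21 CPM in 1 and at 419 CPM in αPD-1 replicate 2, where its 81 UMIs came from 1 cell. Gzmf was at 0 CPM in NK cells of 5 of 6 samples, and none of the 3 was detected in Foxp3+ T cells. In CD4 T cells Gzmd and Gzme reached 64.7 and 90.6 CPM in 1 sample, αPD-1 + corin replicate 3, from 5 and 7 UMIs of 1 cell. Gzmm was scarce everywhere, with 2.61 to 22.4 CPM in CD8 T cells, 0 to 19.0 CPM in NK cells and 0.501 to 1.05 CPM in myeloid cells.

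**Figure D1:**
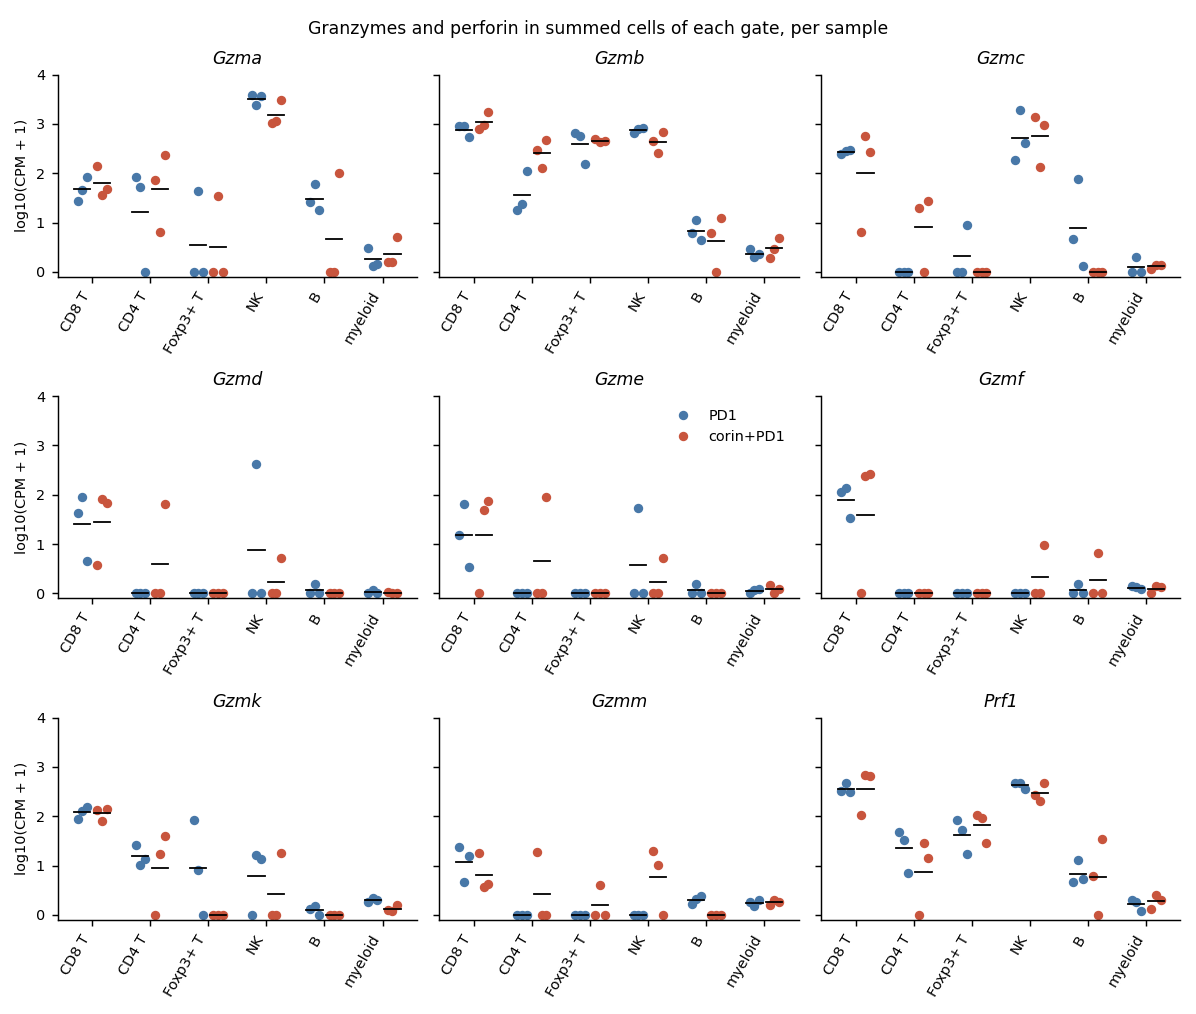
Level of each gene, as log10 of CPM plus 1, in the summed cells of 6 gates. Each point is 1 sample, blue for αPD-1 and red for αPD-1 + corin, and the black line is the mean of the 3 points. Gzma stands highest in NK cells, Gzmk in CD8 T cells, Gzmb is shared by CD8 T, Foxp3+ T and NK cells, and Gzmd, Gzme and Gzmf are near 0 outside CD8 T cells apart from single points.

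CD8 T cells and NK cells were compared within samples by edgeR with the sample as a block, over all genes. Of the 9 genes 5 passed the filter on low counts and 3 passed an adjusted p of 0.05, against 22.1% of 4642 genes. Gzma was lower in CD8 T cells by 5.46 on the log2 scale (SE 0.33, adjusted p = 6.77e-11), Gzmk was higher by 3.82 (SE 0.35, adjusted p = 5.09e-08) and Gzmb was higher by 0.68 (SE 0.20, adjusted p = 0.0214). The Gzmb call was lost without αPD-1 + corin replicate 2 or 3 and when barcodes with B cell or macrophage UMIs were let in, with log2 differences of 0.47 to 0.92 and adjusted p of 3.01e-09 to 0.117 over 15 alternatives. Prf1 (0.12, SE 0.23, adjusted p = 0.761) and Gzmc (−1.37, SE 0.57, adjusted p = 0.0922) did not pass.

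Against CD4 T cells, 4 of the 9 genes were tested and 3 were called, against 8.75% of 4595 genes. All 3 were higher in CD8 T cells: Prf1 by 4.02 (SE 0.26, adjusted p = 2.19e-08), Gzmb by 2.94 (SE 0.34, adjusted p = 3.73e-05) and Gzmk by 2.70 (SE 0.31, adjusted p = 3.63e-05) on the log2 scale. Gzma did not differ beyond the spread (−0.25, SE 0.50, adjusted p = 0.816). Against Foxp3+ T cells, 4 genes were tested and all 4 were called, against 11.1% of 5174 genes. The smallest difference was that of Gzmb, at 1.11 (SE 0.16, adjusted p = 1.13e-04), compared with 2.74 for Prf1 (SE 0.30, adjusted p = 3.37e-06) and 2.91 for Gzmk (SE 0.54, adjusted p = 9.88e-04). Gzmk had only 14 UMIs in Foxp3+ T cells, of which 13 were in αPD-1 replicate 1 and 11 of those in 1 cell. Its log2 difference ran from 2.52 to 6.37 over 15 alternatives. The Gzmk calls against CD4 T and NK cells rest on 16 and 8 UMIs in those cells. Gzma was 1.67 higher in CD8 T cells (SE 0.52, adjusted p = 0.0447), a call lost in 9 of 14 alternatives, with adjusted p of 1.90e-05 to 0.223.

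The make-up of the granzyme and perforin UMIs differed in the same way. In CD8 T cells Gzmb made up 36.0% to 66.0% of the UMIs of the 9 genes and Gzma 1.32% to 11.6%. In NK cells Gzma made up 32.4% to 74.8% and Gzmb 12.6% to 16.0%. In Foxp3+ T cells Gzmb made up 76.6% to 94.3%, so that little else was counted there.

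**Figure D2:**
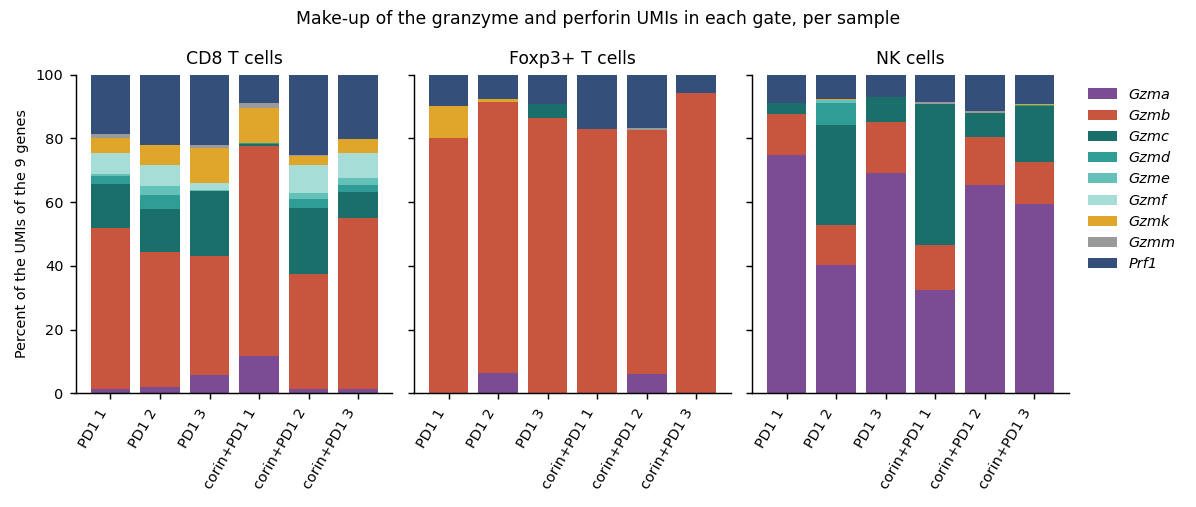
Percent of the UMIs of the 9 genes that each gene held, in CD8 T, Foxp3+ T and NK cells, with 1 bar per sample. Gzma is the largest part of 5 of 6 NK bars and Gzmc of that of αPD-1 + corin replicate 1, Foxp3+ T bars mostly Gzmb, and CD8 T bars are shared by Gzmb, Prf1, Gzmk and the Gzmc to Gzmf genes, which are near absent in αPD-1 + corin replicate 1.

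Over all kept cells, the gates accounted for different parts of each gene. CD8 T cells held a median of 38.4% of the Gzmb UMIs of a sample (26.1% to 66.5%), 42.1% of Prf1, 43.4% of Gzmk and 59.9% of Gzmf. NK cells held 48.6% of Gzma (19.3% to 54.5%) although they were between 39 and 106 cells of a sample. Cells in no gate held a median of 47.4% of Gzmb (26.8% to 54.2%), mostly T cell barcodes with macrophage UMIs. With those barcodes let into the gates, the mean share of Gzmb in CD8 T cells went from 41.9% ± 14.2 (SD, n = 6) to 73.3%. Gzmm UMIs were spread over all gates, with a median of 15.3% in myeloid cells.

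The comparison with treatment asks whether corin added to αPD-1 changed these genes within a lineage. In bulk sums, fewer expressing cells and less RNA per cell cannot be told apart, so shares of cells are given as well. In CD8 T cells none of the 9 genes was called by edgeR, against 2.53% of 8593 genes, and 1650 genes had an unadjusted p under 0.05, of the 9 only Gzmb. Gzmb, with the sums given above, was 0.67 higher with corin on the log2 scale (SE 0.29, adjusted p = 0.244), and the groups overlapped, as αPD-1 + corin replicate 1 (774 CPM) was below 2 under αPD-1 alone. Prf1 was 0.47 higher (SE 0.48, adjusted p = 0.659). The median log2 difference of the 9 was 0.36, against 0.01 for all genes tested, and the adjusted p of the other 7 was between 0.347 and 0.994. Without αPD-1 + corin replicate 1, Prf1 was called, at 0.90 (adjusted p = 0.0297), against 3.26% of 9028 genes. Without a filter on low counts, Gzmb was called, at an adjusted p of 0.0251, against 4.97% of 18694 genes. Over 17 alternatives the adjusted p of Gzmb ran from there to 0.611.

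Markers of other cells in the CD8 T sums also differed between the groups. Beside the myeloid list given above, the macrophage list was at 47.7, 37.8 and 30.1 CPM against 103, 72.1 and 58.8 CPM and Tyrobp at 78.8, 46.9 and 81.7 CPM against 392, 221 and 104 CPM, both without overlap. The NK list was also without overlap, at 43.8, 54.9 and 46.9 CPM against 89.1, 86.0 and 58.1 CPM. The B cell list went the other way without overlap, at 29.2, 9.75 and 18.0 CPM against 8.35, 4.34 and 2.57 CPM. Within αPD-1 + corin, the macrophage list and Tyrobp were highest in replicate 1, where Gzmb was lowest. The part of these markers in these results was not tested.

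The share of CD8 T cells with a UMI was compared at equal depth, with each cell thinned to 1000 UMIs. Gzmb had a UMI in 23.6%, 24.3% and 19.6% of CD8 T cells under αPD-1 alone and in 33.3%, 38.0% and 54.5% under αPD-1 + corin. The groups did not overlap, and the means were 22.5% ± 2.55 and 41.9% ± 11.1 (SD, n = 3; exact permutation test, two-sided p = 0.1, the smallest that 3 against 3 allow, 0.8 adjusted over 9 genes). Wilson 95% intervals, which cover counting error only, were 19.1% to 28.7%, 20.1% to 29.1% and 15.2% to 25.0% against 24.9% to 42.9%, 31.7% to 44.9% and 51.2% to 57.7%. Of the 9 genes 1 was without overlap, and 8.66% of 9949 genes were without overlap and higher with corin. Myeloid cells, where the gene is background, had a UMI in 0.0919% to 0.589% of cells at the same depth. Before thinning, the means were 35.3% and 61.4% and the groups were again without overlap, as they were with no B cell or macrophage UMI allowed (22.5% ± 1.56 and 43.0% ± 11.2, SD, n = 3).

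Prf1 had a UMI in 14.0%, 21.4% and 12.8% of CD8 T cells against 10.8%, 33.7% and 33.4%. The groups overlapped, since αPD-1 + corin replicate 1 was the lowest of the 6 samples and the other 2 were the highest (exact permutation test, p = 0.4). Any of Gzmc to Gzmf had a UMI in 3.99%, 2.61% and 1.60% against 0.980%, 11.7% and 5.31%, with the same order of samples (exact permutation test, p = 0.5). Without αPD-1 + corin replicate 1, 7 of the 9 genes were without overlap in place of 1, and 6 in a second draw of the thinning, 5 higher with corin and Gzmm lower. In that draw 30.6% of 9949 genes were without overlap, 14.3% of all being higher with corin, against 19.8% and 8.66% with all samples. The means without that sample were 16.1% under αPD-1 alone and 33.6% under αPD-1 + corin for Prf1, and 2.73% and 8.51% for any of Gzmc to Gzmf. Gzmk, at 5.32% to 14.5%, overlapped in the full set.

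**Figure D3:**
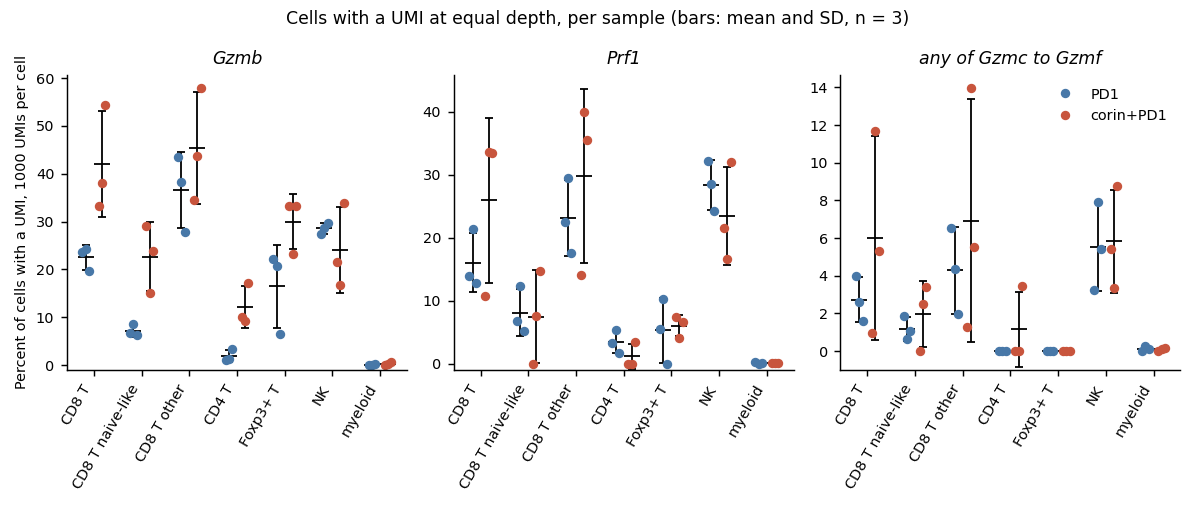
Percent of cells with a UMI of Gzmb, Prf1 or any of Gzmc to Gzmf after each cell was thinned to 1000 UMIs, per gate. Points are samples, blue for αPD-1 and red for αPD-1 + corin, and bars give the mean and SD (n = 3). For Gzmb the groups do not overlap in CD8 T, CD4 T and Foxp3+ T cells. They overlap in NK cells and in CD8 T cells other than naive-like. In naive-like CD8 T cells they do not overlap, but the share of all genes without overlap was not counted in that gate. For Prf1 the groups overlap in all gates.

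The make-up of the CD8 T gate differed between the groups. Naive-like CD8 T cells, with at least 2 UMIs of Lef1, Ccr7, Tcf7 or Igfbp4, numbered 165, 162 and 97 against 24, 40 and 88, and the naive markers summed to 780, 526 and 571 CPM against 301, 195 and 100 CPM of the CD8 T sums. In the remaining CD8 T cells (139, 184 and 155 against 79, 166 and 798) Gzmb was at 1556, 1331 and 755 CPM against 1036, 1176 and 1844 CPM. There the log2 difference was 0.24 (SE 0.27, adjusted p = 0.914), and thinned shares were 43.5%, 38.3% and 27.9% against 34.6%, 43.6% and 57.8%, with overlap. None of 8 genes tested was called in this comparison, nor was any of the 7522 genes (0%), of which 555 had an unadjusted p under 0.05 and 27 were called by DESeq2. Naive-like cells themselves had a Gzmb UMI in 6.75%, 8.64% and 6.25% against 29.2%, 15.0% and 23.9% of cells, on 24 to 163 cells per sample, and this was not tested. The share of all genes without overlap was not counted in naive-like cells, so this difference cannot be set beside it.

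In all T cells together Gzmb was at 543, 615 and 343 CPM against 550, 629 and 1496 CPM, a log2 difference of 0.90 (SE 0.39, adjusted p = 0.206). None of the 9 was called, against 5.03% of 10252 genes (2473 at an unadjusted p under 0.05). Calls appeared without αPD-1 + corin replicate 1, those of Gzmc (adjusted p = 0.0358) and Prf1 (1.09, adjusted p = 0.0461), against 4.42% of 10719 genes in that fit. Over 17 alternatives the edgeR or DESeq2 adjusted p ran from 0.0358 to 0.986 for Gzmc and from 0.0461 to 0.919 for Prf1.

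The only treatment call was in CD4 T cells without Foxp3. Gzmb was at 17.1, 23.2 and 112 CPM under αPD-1 alone and at 293, 126 and 479 CPM under αPD-1 + corin, from 4, 5 and 18 against 16, 23 and 37 UMIs. Single cells weighed heavily on these sums, as the top cell of each sample held 2, 5 and 16 UMIs against 9, 10 and 22. Every αPD-1 + corin sum was above every αPD-1 sum, and the log2 difference was 2.57 (SE 0.57, adjusted p = 0.0145). Of the 9 genes, 2 had enough counts to be tested and 1 was called, against 6.79% of 3078 genes. Gzma, the other, was at 81.3, 51.0 and 0 CPM against 73.2, 5.46 and 233 CPM (adjusted p = 0.695). Prf1 did not follow Gzmb, with 47.1, 32.4 and 6.22 CPM against 0, 27.3 and 12.9 CPM, too few counts for the test.

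At equal depth, 1.11%, 1.35% and 3.45% of CD4 T cells had a Gzmb UMI under αPD-1 alone, and 10.0%, 9.30% and 17.2% under αPD-1 + corin, without overlap (exact permutation test, p = 0.1, 0.9 adjusted over 9 genes). In this gate 8.51% of 4842 genes were without overlap and higher with corin. The groups overlapped with no B cell or macrophage UMI allowed (2.30% ± 1.55 and 10.2% ± 9.30, exact permutation test, p = 0.4) and with 2 UMIs needed of the class markers (exact permutation test, p = 0.2). The positive cells were few, 1, 1 and 2 against 2, 4 and 5. The call was lost in 8 of 17 alternatives, with adjusted p of 2.18e-09 to 0.391 over them and log2 differences of 1.36 to 3.70. It was lost without αPD-1 replicate 1, without αPD-1 replicate 2, and without αPD-1 + corin replicate 3 (1.95, adjusted p = 0.0539), with DESeq2 (2.60, adjusted p = 0.0888), with no B cell or macrophage UMI allowed (2.31, adjusted p = 0.0647), when the upper gene limit was lifted, and with stricter T cell gates.

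Markers of other cells were read beside this result. The myeloid list summed to 514, 153 and 585 CPM of the CD4 T sums against 1134, 3309 and 531 CPM, with overlap. The macrophage list was at 42.8, 32.4 and 68.4 CPM against 110, 81.9 and 104 CPM, without overlap. Within αPD-1 + corin, replicate 2 was highest in the myeloid list and lowest in Gzmb. Replicate 1 was highest in the macrophage list and in Tyrobp. Tyrobp, expressed by NK and myeloid cells, was at 38.5, 18.5 and 74.7 CPM against 1043, 300 and 220 CPM, without overlap. The NK list went the other way, at 51.4, 60.2 and 37.3 CPM against 18.3, 0 and 25.9 CPM. Naive markers were at 1421, 1515 and 946 CPM against 146, 344 and 285 CPM. Il2ra, the high-affinity interleukin-2 receptor chain, was at 42.8, 41.7 and 43.6 CPM against 201, 109 and 51.8 CPM, without overlap. Foxp3+ T cells held Il2ra at 249 to 529 CPM. A regulatory T cell in which no Foxp3 UMI was counted would fall in the CD4 T gate. The part of these differences in the Gzmb result was not tested.

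In Foxp3+ T cells Gzmb, at the levels given above, had a log2 difference of 0.05 (SE 0.37, adjusted p = 0.984), and Prf1, the other gene tested, was at 81.2, 50.6 and 16.1 CPM against 104, 92.3 and 27.7 CPM (adjusted p = 0.661). Neither was called, against 0.462% of 2379 genes. The thinned share with a Gzmb UMI was 22.2%, 20.7% and 6.45% against 33.3%, 23.3% and 33.3%, without overlap (exact permutation test, p = 0.1), on 15 to 73 cells per sample. In this gate 6.24% of 3782 genes were without overlap and higher with corin. The groups overlapped when cells were not thinned, were thinned to 2000 UMIs, had no upper limit on genes, or had no limit on B cell or macrophage UMIs. Myeloid markers were read beside this share. Their list summed to 1406, 433 and 274 CPM of the Foxp3+ T sums against 6744, 1686 and 762 CPM, with overlap. Tyrobp was at 81.2, 159 and 64.4 CPM against 718, 340 and 360 CPM, without overlap. The part of these markers in the result was not tested.

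In NK cells Gzma, Gzmb and Prf1 went the other way in sign, without a call. Gzma, with the sums given above, was 0.82 lower with corin on the log2 scale (SE 0.32, adjusted p = 0.250), Gzmb 0.60 lower (SE 0.28, adjusted p = 0.372) and Prf1 0.35 lower (SE 0.27, adjusted p = 0.634). For Gzma and Gzmb, αPD-1 + corin replicate 3 (3089 and 682 CPM) lay within the range under αPD-1 alone and the other 2 below it. None of 4 genes tested was called, against 0.329% of 3036 genes. Gzmc, the remaining gene tested, was at 186, 1927 and 411 CPM against 1389, 133 and 926 CPM (adjusted p = 0.996). Gzma was called without αPD-1 + corin replicate 3 (−1.48), against 2.96% of 2971 genes. It was also called with the replicate number as a block (−0.96, adjusted p = 0.0280), against 2.57% of 3036 genes. Its adjusted p ran from 0.00129 to 0.711 in 17 alternatives. Marker levels in the NK sums were read beside these genes: the NK list was at 2056, 2398 and 2362 CPM against 1446, 1380 and 2206 CPM, Klrk1 at 667, 813 and 976 CPM against 333, 367 and 758 CPM, and the myeloid list at 674, 533 and 128 CPM against 875, 1779 and 922 CPM. The myeloid list did not overlap between groups, and the NK list and Klrk1 did. Their part in the result was not tested. The thinned share of NK cells with Gzma was 64.5%, 68.3% and 56.8% against 43.2%, 50% and 74.8%, with overlap.

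In myeloid cells 1 of the 9, Gzmb, passed the filter, from 21 and 71 UMIs in the 2 groups, and was not called (0.71, SE 0.60, adjusted p = 0.560), against 0.0388% of 12887 genes. The levels were 0.889 to 3.84 CPM here and 0 to 11.2 CPM in B cells, the gates that should lack the gene.

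Whether the effect of corin differed between lineages was tested as an interaction. Between CD8 T cells and NK cells, the log2 difference with corin was 1.28 higher for Gzmb in CD8 T cells (SE 0.28, adjusted p = 0.0795), which did not pass, and it passed in 2 of 15 alternatives, with adjusted p of 1.89e-05 to 0.939. Prf1 (0.71, SE 0.43, adjusted p = 0.781) and Gzma (1.15, SE 0.51, adjusted p = 0.615) did not pass either. Of 8 genes tested 1 passed, Gzmd (adjusted p = 0.0421), against 0.0877% of 5700 genes, and it rests on the single NK cell with 81 Gzmd UMIs in αPD-1 replicate 2, without which the adjusted p was 0.967. Between CD8 T cells and Foxp3+ T cells none of 8 genes passed, against 0.0802% of 6237 genes (450 at an unadjusted p under 0.05), with adjusted p of 0.826 for Gzmb and 0.981 for Prf1.

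In single cells Gzmc, Gzmd, Gzme and Gzmf were concentrated in few CD8 T cells. Of 2097 CD8 T cells, 185 had a UMI of Gzmc, Gzmd, Gzme or Gzmf before thinning. Of these, 119 had 1 of the 4 genes, 35 had 2, 10 had 3 and 21 had all 4. The 21 cells with all 4 held 4476 of the 5543 UMIs. They were in 5 of the 6 samples, with 1, 2 and 1 cells under αPD-1 alone and 0, 8 and 9 under αPD-1 + corin. Their median total was 8897 UMIs per cell, against 3309.5 in CD8 T cells without the genes, so these cells were also deeper, and the part of depth in this was not tested. The most common patterns were Gzmc alone (92 cells), Gzmc with Gzmf (29), Gzmf alone (22) and all 4. Gzmg, another copy in the cluster with 87.3% of its coding bases in common with Gzmd, had 38 UMIs in CD8 T cells, and Gzmn none.

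In NK cells the pattern was narrower. Of 374 NK cells, 35 had a UMI of the 4 genes and 29 of these had Gzmc alone. No NK cell had all 4, and 1 had 3. Single cells weighed heavily on the sums, since 1 cell held 328 of the 372 Gzmc UMIs of αPD-1 replicate 2, and 1 cell held 129 of the 146 in αPD-1 + corin replicate 1.

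**Figure D4:**
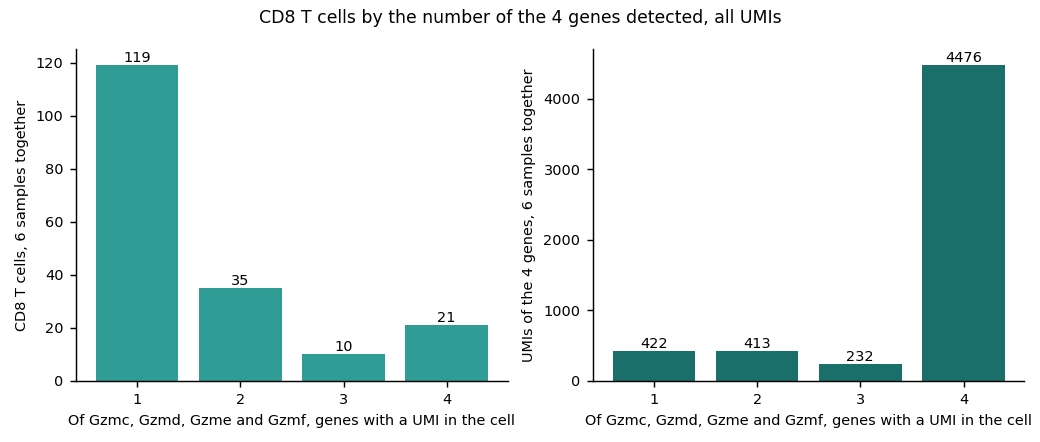
Number of CD8 T cells (left) and UMIs of Gzmc, Gzmd, Gzme and Gzmf in them (right), by how many of the 4 genes had a UMI in the cell, over 6 samples. Cells with all 4 genes number 21 and hold 4476 UMIs, while the 119 cells with 1 gene hold 422.

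Co-detection was counted at 1000 UMIs per cell, where 2088 CD8 T cells were deep enough. Prf1 had a UMI in 43.6% of 798 cells with Gzmb and in 13.6% of 1290 cells without it. By sample the shares were 38.0% and 6.52%, 44.0% and 14.2%, and 30.6% and 8.46% under αPD-1 alone, and 17.6% and 7.35%, 60.3% and 17.3%, and 44.8% and 19.9% under αPD-1 + corin. The share was higher with Gzmb in 6 of 6 samples, by a mean of 27.0 percentage points ± 10.9 (SD, n = 6). Cells of 1 sample are not replicates, so these are descriptions.

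Among the copies, Gzme had a UMI in 68.4% and Gzmf in 73.7% of the 19 cells with Gzmd, against 0.290% and 1.5% of cells without it. Gzmf was in 37.7% of the 77 cells with Gzmc and in 0.796% of the others, and 88.3% of cells with Gzmc also had Gzmb. For Gzmk, often seen in memory CD8 T cells, Gzmf was in 1.29% of the 232 cells with it and 2.26% of the rest, and Gzmc in 2.59% and 3.83%, from 3 and 6 cells with both genes. Gzmb was in 51.3% of cells with Gzmk and 36.6% of those without. Prf1 was in 28.4% of cells with Gzmk and 24.7% of those without, and the share was higher with Gzmk in 2 of 6 samples. In CD8 T cells other than naive-like, Gzmb was in 52.9% of cells with Gzmk and 47.7% of those without. Prf1 was in 29.5% and 31.4% there. The part of naive-like cells in the values of the whole gate was not tested.

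In NK cells Gzmb and Prf1 were found together as in CD8 T cells, with Prf1 in 44.4% of 99 cells with Gzmb and in 20.5% of 263 without. For Gzma and Gzmc, 40.0% of the 20 NK cells with Gzmc had Gzma, against 64.0% of the 342 without, with 2 to 8 NK cells with Gzmc in a sample.

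**Figure D5:**
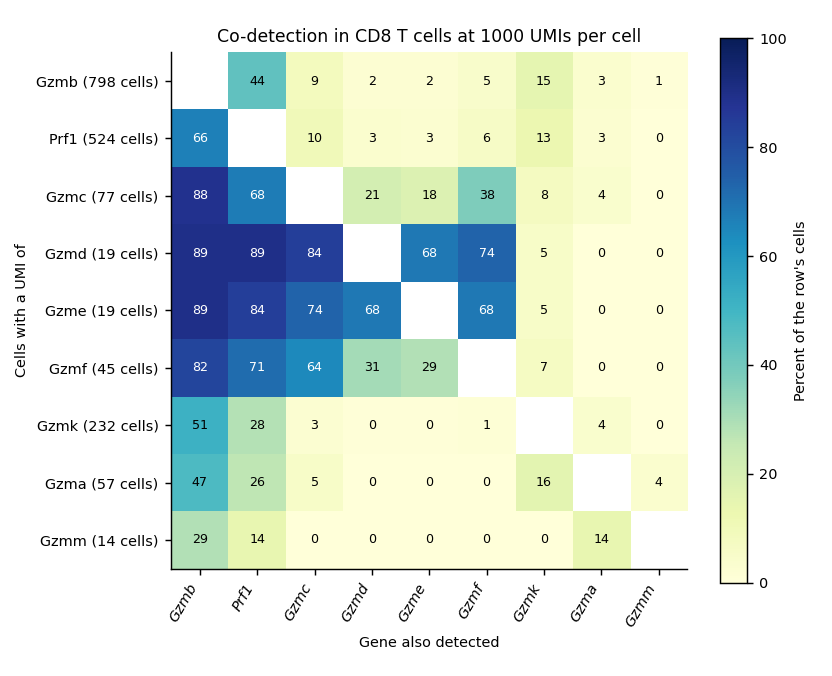
Percent of CD8 T cells with a UMI of the row's gene that also had a UMI of the column's gene, at 1000 UMIs per cell, over 6 samples, with the number of cells beside each row. Gzmd and Gzme rows are high for each other, Gzmc and Gzmf. The Gzmc row is lower for Gzmd, Gzme and Gzmf (20.8%, 18.2% and 37.7%), as is the Gzmf row for Gzmd and Gzme (31.1% and 28.9%). Gzmc to Gzmf rows are all high for Gzmb and Prf1. The Gzmk row is high for Gzmb (51.3%) and low for Gzmc to Gzmf.

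CD8 T cells with a UMI of Gzmc to Gzmf were set beside the rest of the gate in the same sample, with all UMIs. They numbered 20, 25 and 10 under αPD-1 alone and 3, 39 and 88 under αPD-1 + corin. Gzmb was at 3074, 2675 and 2446 CPM in them and at 622, 625 and 357 CPM in the other CD8 T cells under αPD-1 alone. Under αPD-1 + corin it was at 256, 2075 and 4628 CPM against 803, 606 and 1273 CPM. It was higher in these cells in 5 of 6 samples, all but αPD-1 + corin replicate 1 with its 3 cells, and the mean log2 ratio was 1.53 ± 1.60 (SD, n = 6), or 2.16 without that sample.

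In the same 5 samples Prf1 was at 1003 to 1658 CPM in these cells and at 197 to 492 CPM in the rest. Serpinb9, the inhibitor that protects killer cells from granzyme B, was at 144 to 282 CPM against 40.6 to 106 CPM, and Il2ra, the high-affinity interleukin-2 receptor chain, at 81.8 to 177 CPM against 14.4 to 32.1 CPM. Tcf7, the transcription factor of naive and stem-like cells, was at 0 to 90.4 CPM against 46.4 to 314 CPM. Gzmk was higher in these cells in 2 of 6 samples, at 14.5 to 135 CPM against 72.7 to 169 CPM. These cells also had more UMIs, with medians of 5084 to 8666 per cell against 2464 to 4406, and the part of depth in these values was not tested. The rest of the gate includes the naive-like cells, which were gated in part on Tcf7 and had less Gzmb. Their part was not tested either, so these values are not shown to be particular to cells with Gzmc to Gzmf.

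A list of 37 further genes of the granule pathway was read beside the 9: granule content and loading, exocytosis, granzyme inhibitors, uptake receptors, death ligands and the transcription factors of killer cells. In CD8 T cells 35 were tested, 2 were higher with corin and 0 lower (5.71%, against 2.53% of all genes), 28 had a positive log2 difference, and the median was 0.29 against 0.01 for all genes. Serpinb6b, an intracellular serpin, was at 83.7, 68.9 and 103 CPM against 120, 178 and 202 CPM (1.09, SE 0.20, adjusted p = 0.0299). Lamp2, a membrane protein of lysosomes, was at 34.1, 36.0 and 44.5 CPM against 80.7, 73.8 and 56.7 CPM (0.90, SE 0.20, adjusted p = 0.0469). Neither group of sums overlapped. The Lamp2 call was lost in 13 of 17 alternatives and that of Serpinb6b in 8, with adjusted p of 0.00319 to 0.244 and 2.29e-05 to 0.221 over them, and Lamp2 was at 238 to 337 CPM in myeloid cells.

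Others of the list named by rule did not pass in CD8 T cells. Srgn, the proteoglycan that packs granzymes, was at 1030, 903 and 923 CPM against 1525, 1985 and 1085 CPM (adjusted p = 0.0742). Serpinb9 was at 59.4, 62.2 and 57.7 CPM against 50.1, 103 and 130 CPM (adjusted p = 0.108). Adjusted p was 0.237 for Ctsc, the protease that activates granzymes, 0.822 for Nkg7, a granule membrane protein, 0.649 for Tbx21 and 0.958 for Eomes, transcription factors of killer cells. In CD8 T cells other than naive-like, 0 of the 35 were called. In CD4 T cells 6 of 20 tested were higher with corin and 0 lower, against 6.79% of 3078 genes called: Srgn, Nkg7, Lyst, Zeb2, Hopx and Id2, of which the last 4 are named after their values were seen. The values of the marker lists, Tyrobp and Il2ra given for Gzmb in CD4 T cells apply to these genes too. Between CD8 T and NK cells, 3 of the 33 tested were higher in CD8 T cells and 7 lower (30.3% called, against 22.1% of all genes), among them Eomes (−1.86, adjusted p = 1.16e-07) and Serpinb9 (−1.58, adjusted p = 3.84e-06).

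Genes whose level most resembled the members across the 30 sums of 5 lymphoid gates (CD8 T, CD4 T, Foxp3+ T, NK and B cells in 6 samples) were found among 7394 genes that reached 50 CPM. Pearson r was on log2 of CPM plus 10, and the sums of a sample share a library. Nearest to Gzmb were Nkg7 (r = 0.933), Il2rb (0.915), Sytl2 (0.914), AW112010 (0.912) and Osbpl3 (0.903). Nearest to Prf1 were Eomes (0.820), Padi2 (0.814), Ctsw (0.811), Adamts14 (0.806) and Pdgfb (0.805). Nearest to the sum of Gzmc to Gzmf were Klrc1 (0.873), Cd244a (0.837), Eomes (0.832), Klrd1 (0.829) and Nrgn (0.828). The 2 last lists share Eomes, and r was lower there than for Gzmb.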

How the data were processed

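The libraries were made with the GEM-X Single Cell 5′ kit, and the deposited values are raw UMI counts per gene and barcode. The submitters' processing notes name Cell Ranger 8.0 and Seurat 5.0.11, and the annotation release and strand setting are not given in the sources used here. Barcodes outside 600 to 4000 genes, or above 10% mitochondrial UMIs, were left out. Scrublet's own threshold marked 5 barcodes, so the highest-scoring 0.4% per 1000 barcodes were removed instead (2002). UMIs were summed per sample and gate and tested with edgeR 4.0.16 (TMM, filterByExpr, quasi-likelihood, Benjamini-Hochberg adjustment over all genes, threshold 0.05), with the sample as the replicate. Shares of cells, at 1000 UMIs per cell, were compared with exact permutation tests. The fit was tested on simulated data. Alternatives were DESeq2 1.42.0, other size factors and filters, stricter and looser gates, the replicate block and each sample left out. All 9 genes were read in each comparison, though not every gene is named in each. Of the pathway list, those called in CD8 T cells and 6 fixed genes were named by rule. The members and lists were chosen with earlier results of these data known. Values of the authors' own clusters were not used.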

Additional observations from a re-analysis of the deposited data

Results flagged for a closer look

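The effect of corin on Gzmd differed between CD8 T cells and NK cells (edgeR interaction, adjusted p = 0.0421), with 40.9, 90.2 and 3.61 CPM against 2.78, 82.5 and 67.0 CPM in CD8 T cells. In NK cells the gene was at 0, 419 and 0 CPM against 0, 0 and 4.21 CPM, and the 81 UMIs of αPD-1 replicate 2 came from 1 cell. Without that sample the adjusted p was 0.967, and 7 of 15 alternatives passed.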

How the results depend on the processing

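Of 678 values under alternatives, over 43 results, 583 were labeled the same as in the main setting. The rule for this label differed by kind of result. A fitted value had to keep its direction and side of the threshold, and a count only a similar size. A difference in shares had only to stay positive, and a described value to stay within the SD of the samples. Without a filter on low counts the members called with treatment were 1 in CD8 T cells (4.97% of all genes called), 1 in Foxp3+ T cells (1.26%) and 1 in NK cells (1.45%). They were 6 between CD8 T and NK cells (9.95%), 7 between CD8 T and CD4 T cells (4.08%), 8 between CD8 T and Foxp3+ T cells (4.01%), and 2 and 1 in the interactions with NK (0.216%) and Foxp3+ T cells (0.232%), and 7 genes of the pathway list were called in CD8 T cells. In CD4 T cells 0 members were called with no upper gene limit, a Cd3e UMI needed, no B cell or macrophage UMI, 2 class UMIs or DESeq2. The interaction with NK cells had 0 calls with no upper gene limit, a mitochondrial limit of 5%, a Cd3e UMI needed, 2 class UMIs, or no limit on B cell or macrophage UMIs, a setting chosen after seeing the data. The pathway list in CD8 T cells had 0 calls with no upper gene limit, a Cd3e UMI needed or 2 class UMIs, and 1 with the mitochondrial limit of 5%, with no B cell or macrophage UMI and with the replicate block. The cause was not tested.

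Gzmb in Foxp3+ T cells turned to −0.33 (no upper gene limit), −0.078 (Cd3e UMI needed) and −0.010 (no low-count filter), and Prf1 between CD8 T and NK cells to −0.0090 with no limit on B cell or macrophage UMIs. Not thinned, 2 members were without overlap, both higher with corin, against 13.6% of 12662 genes, and the co-detection difference was 45.0 percentage points. With no limit on B cell or macrophage UMIs CD8 T cells held 73.3% of Gzmb. With the replicate block 1 member, Gzma, was called in NK cells (2.57% of all genes), and the block changed no other count of members called. The replicate numbers share only a number, since correlations of deviations ran from −0.27 to 0.31 over pairs in 4 gates.

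With each sample left out, members called ran from 0 to 2 in all T cells (0.173% to 12.4% of all genes), 0 to 1 in CD8 T (0.142% to 5.52%), CD4 T (2.43% to 7.94%) and NK cells (0% to 2.96%), 3 to 6 between CD8 T and CD4 T cells (4.45% to 6.84%) and 0 to 3 in the interaction with NK cells (0.0166% to 0.545%), and pathway calls in CD8 T cells from 0 to 4. Members without overlap ran from 1 to 7, and all genes without overlap from 27.3% to 32.8%. Gzmb ran from −0.056 to 0.45 in CD8 T cells other than naive-like and from −0.36 to 0.39 in Foxp3+ T cells, and Prf1 between CD8 T and NK cells from −0.18 to 0.32. Gates of 15 to 106 cells limit what NK, CD4 T and Foxp3+ T cells can show.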
